A study of Mus musculus with 42 samples.

Results

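Described here are 10 genes of transforming growth factor beta (TGF-beta) and bone morphogenetic protein (BMP) signaling, followed over 42 single retinal progenitor cells (RPCs) of the developing mouse. The genes were taken by their symbol from a list: the ligands Tgfb2, Bmp4, Bmp7 and Gdf11, the receptors Tgfbr1, Tgfbr2 and Bmpr1a, and the intracellular mediators Smad1, Smad5 and Smad4. They are 10 of the 18194 genes that the array measured with a probe set of a single gene, and 30 probe sets represented them. Each cell was from a CD1 mouse retina and was hybridized to its own Affymetrix array after 35 cycles of PCR. Embryonic day (E) 12.5 contributed 11 cells, E13.5 contributed 4, E14.5 contributed 2, E15.5 contributed 1 and E16.5 contributed 11, and 13 cells came from the day of birth, postnatal day (P) 0. No allele or treatment differed between the stages. Retinas were dissociated, cells were picked singly, and the class of progenitor was given to these cells afterwards from their profiles. The authors counted some of the 42 as transitional between progenitor and neuron, among them E14.5 cell B1 and E16.5 cell F1.

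A gene was called present in a cell where its highest probe set reached a MAS5 signal of 1000, a linear intensity on a scale on which the trimmed mean of each array is 500. The animal or litter of a cell is not given, so each stage counts as 1 sample. No test between stages was made for that reason, and the 95% intervals (exact Clopper-Pearson for shares, Newcombe for differences) cover counting error only. A signal below 1000 limits the cells in which the array registered the gene, not the cells that express it. The 42 cells had 1386 to 5253 genes present, with a median of 3034. The 10 progenitor markers measured were positive in 70.7% of their 420 values. At E16.5, 5 of the 11 arrays (those of J1, J2, J4, E8 and F1) carried a pattern of control probe sets unlike that of the other 37, and they are called the deviating arrays here. These 5 arrays and that of E13.5 cell A6 also had the 6 highest median signals over all genes, 382 to 623, against 243 at most in the remaining 36 cells. Lens markers stood out in 2 cells, A6 with 4 of 7 present and a summed signal of 362850, and E14.5 cell D7 with 5 of 7 present and 125863. The median over the cells other than A6 was 605.

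In this pathway a dimeric ligand brings together type I and type II serine/threonine kinase receptors at the cell surface. The type I receptor then phosphorylates receptor-regulated Smads, Smad2 and Smad3 for TGF-beta and activins and Smad1, Smad5 and Smad9 for BMPs, which enter the nucleus with the common partner Smad4. In the retina the pathway is known for roles in dorsoventral patterning, in the restraint of progenitor division and in the timing of neuron production.

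**Figure D1:**
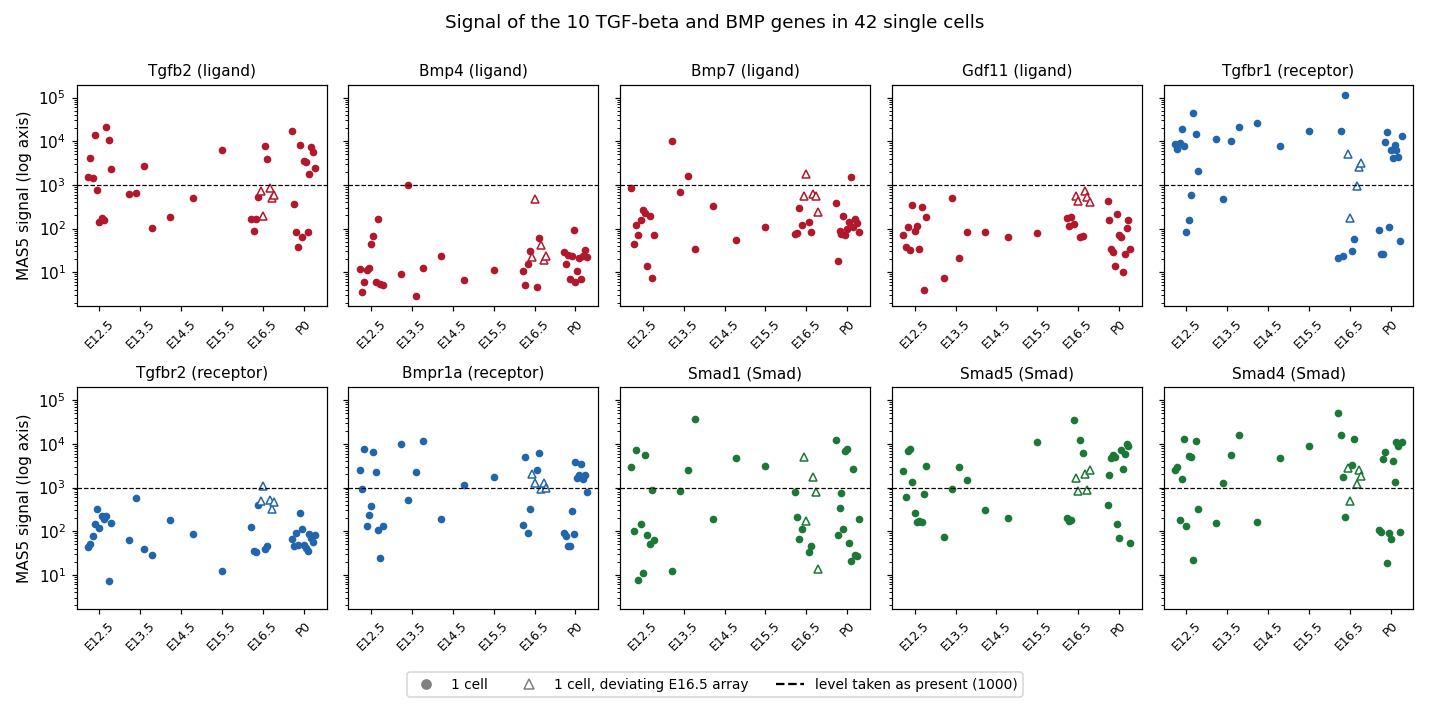
MAS5 signal (log axis) of the 10 genes in each of the 42 cells, by stage; a filled circle is a cell, an open triangle a cell on one of the 5 deviating E16.5 arrays, and the dashed line the level of 1000. Tgfb2, Tgfbr1, Bmpr1a and the Smads spread over both sides of the line at E12.5, E16.5 and P0, whereas Bmp4 and Gdf11 stayed below it in 42 of 42 cells and Tgfbr2 in 41.

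Of the 4 ligands, Tgfb2 was the one found in many cells, Bmp7 was found in 4, and Bmp4 and Gdf11 were found in none. Tgfb2, a secreted TGF-beta isoform that needs the type II receptor Tgfbr2 and is helped by a co-receptor, was present in 19 of 42 cells (45.2%, interval 29.8 to 61.3%). Only 13.2% of all genes were present in 19 or more cells. No cell had a Tgfb2 signal between 831 and 1435, and among the 19 positive cells the median was 4046.

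At E12.5 Tgfb2 was present in 7 of 11 cells, with a lowest signal of 138, a median of 1541 and a highest of 21698, in cell F2. The 4 cells of E13.5 had signals of 603, 639, 2763 and 104, the 2 cells of E14.5 had 183 and 512, and the cell of E15.5 had 6312. Between E13.5 and E15.5 cells A8 and B7 thus had the gene and the other 5 cells lacked it. Of the E16.5 cells, 2 of 11 had it (lowest 87.8, median 522, highest 7791), cells F4 and F5. At P0 it was present in 8 of 13 cells (lowest 37.3, median 2412, highest 17364). The ranges of the stages overlapped throughout, and what differed was the share of cells on the high side.

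Tgfb2 was found in 18.2% of E16.5 cells and 63.6% of E12.5 cells, a difference of -45.5 points with an interval of -70.3 to -4.59. It was found in 61.5% of P0 cells and 18.2% of E16.5 cells, a difference of 43.4 points (4.01 to 67.9). Between P0 and E12.5, with 61.5% and 63.6%, the difference was -2.10 points (-35.7 to 33.0). The E16.5 cells enter both of the larger differences. None of the 5 deviating arrays reached 1000, with signals of 195 to 831, and 2 of the other 6 E16.5 cells did. Without the 5 arrays the differences were -30.3 points for E16.5 minus E12.5 and 28.2 points for P0 minus E16.5. The 6 E16.5 cells left had a median of 2114.5 genes present, against 2800 at E12.5 and 3063 at P0. The part of that lower number in these differences was not tested. With a level of 500 in place of 1000, Tgfb2 was present in 8 of the 11 E12.5 cells, in 6 of the 11 E16.5 cells and in 8 of the 13 P0 cells. Of the values of the progenitor markers, 71.8% were positive in E12.5 cells, 69.1% in E16.5 cells and 70.0% in P0 cells. Of the values of 11 ganglion cell markers, 11.6% were positive in E12.5 cells, 23.1% in E16.5 cells and 23.1% in P0 cells, and their summed signal had medians of 7949, 31910 and 3808 in that order of stages. In the 19 cells with Tgfb2 that sum had a median of 3808 (767 to 41731), against 25559 (810 to 381383) in the 23 without, and these ranges overlapped. The median number of ganglion cell markers present was 1 with Tgfb2 and 2 without. This direction was not particular to ganglion cell markers. Median sums were also lower with Tgfb2 for markers of amacrine and horizontal cells (1912 against 4759), photoreceptors (1035 against 2942) and pigment epithelium (438 against 1252). The median number of markers present was 0 with and without Tgfb2 for photoreceptors and for pigment epithelium. For amacrine and horizontal cells it was 0 with Tgfb2 and 1 without. The 5 deviating arrays and that of E13.5 cell A6, all with raised median signals over all genes, were among the cells without Tgfb2. The part of these arrays in the marker sums was not tested. For progenitor markers the median sum was lower with Tgfb2 (118956 against 136460), though the median number present was 8 with Tgfb2 and 7 without. For Müller glia markers the median sum was higher with Tgfb2 (84969 against 60211). Müller glia markers were positive in 34.5% of their E12.5 values, 44.5% of E16.5 values and 66.2% of P0 values. Stage therefore enters this comparison, and its part was not tested. The part of the array pattern and of ganglion cell markers in the low share at E16.5 was not tested.

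Bmp7, a BMP of the eye field and of the pigmented and ciliary margins, was present in 4 of 42 cells (9.52%, interval 2.66 to 22.6%). They were E13.5 cells A5 and A8, with signals of 10018.5 and 1557, E16.5 cell F1, with 1739, and P0 cell E6, with 1528. Cell A5 thus stood well above the other 3. F1 was on a deviating array. Bmp7 signals were 241 to 1739 on the 5 deviating arrays, against 75.9 to 300 on the other 6 E16.5 arrays. The remaining E13.5 cells had 705 and 34.3, and none of the E12.5 cells reached the level, the highest being 844. Of 8 markers of the retinal pigment epithelium, 2 were present in A5, 1 in A8, 2 in F1 and 0 in P0 cell E6, against 0 to 2 with a median of 0 in the 38 cells without Bmp7. Mitf, a transcription factor of pigment cells, was present in 3 of the 42 cells, which were A5, A8 and F1, with signals of 5104, 2598 and 1510. The array of F1 had the highest median signal over all genes, 623. It also had 3 of 8 mesenchyme and 3 of 7 endothelium markers present, so its presence calls were not particular to pigment markers. Pmel, a melanosome protein, was present in 3 cells, A5 with 24440 and P0 cells B6 and C1, which lacked Bmp7. Ttr was present in 3 cells, of which F1 had Bmp7. Tyrp1 was present only in A6 and Dct only in P0 cell C1, both without Bmp7. Rpe65, Tyr and Mlana were present in 0 of 42 cells. The summed pigment markers ran from 397 to 29917 in the 4 cells with Bmp7 and from 131 to 12028 in the 38 without. Whether pigment epithelium contributed to the Bmp7 signal was not tested.

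Bmp4, the BMP of the dorsal retina, was present in 0 of 42 cells (interval 0 to 8.41%). Its highest signal was 997, in E13.5 cell A6, followed by 463 in E16.5 cell F1, and the median over all cells was 15.6. Gdf11, a ligand of the activin branch that limits ganglion cell number in the mouse retina, was also present in 0 of 42 cells. Its signals ranged from 3.94 to 741, and on the 5 deviating arrays they were 401 to 741, against 64.1 to 186 on the other 6 E16.5 arrays. Each of these genes had a single probe set. In all, 27.4% of the 18194 genes were present in no cell.

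Among the receptors, the type I receptors Tgfbr1 and Bmpr1a were broadly found, and Tgfbr2, the type II partner of Tgfbr1, was almost unregistered. Tgfbr1, the type I receptor of TGF-beta, was present in 27 of 42 cells (64.3%, interval 48.0 to 78.4%), and its median over positive cells was 9065. Only 5.80% of genes were in as many cells or more. Tgfbr2, the type II receptor that binds TGF-beta itself, was present in 1 of 42 cells (2.38%, 0.0603 to 12.6%), E16.5 cell F1, with a signal of 1061. In the other 41 cells it did not exceed 585. No cell had both.

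The promoters of these 2 receptors are shown because the number of cells in which the array registered them differed widely, although for Tgfbr1 this rests on a single probe set. The stretches are from RefSeq on GRCm38.p6, from 250 bases before to 50 bases after the annotated start, with the GC box GGGCGG, searched on both strands, in capitals. The Tgfbr1 stretch is chr4:47352972-47353271 on the plus strand, the more upstream of 2 listed starts, and the Tgfbr2 stretch is chr9:116175314-116175613 on the minus strand.
Tgfbr1: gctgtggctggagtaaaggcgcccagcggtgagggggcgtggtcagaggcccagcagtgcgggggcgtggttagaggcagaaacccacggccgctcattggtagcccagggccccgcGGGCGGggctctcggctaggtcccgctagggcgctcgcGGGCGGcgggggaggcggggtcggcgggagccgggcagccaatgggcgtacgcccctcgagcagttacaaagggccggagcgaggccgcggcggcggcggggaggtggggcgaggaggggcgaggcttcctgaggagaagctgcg
Tgfbr2: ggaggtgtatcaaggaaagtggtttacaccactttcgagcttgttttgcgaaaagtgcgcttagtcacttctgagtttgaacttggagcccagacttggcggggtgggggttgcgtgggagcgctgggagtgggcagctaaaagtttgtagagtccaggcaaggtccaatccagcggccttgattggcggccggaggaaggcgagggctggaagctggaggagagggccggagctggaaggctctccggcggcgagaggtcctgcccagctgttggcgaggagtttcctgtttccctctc
Tgfbr1 held 2 GC boxes and 34 CpG dinucleotides in this window, and Tgfbr2 held 0 and 15. Over 32851 promoter windows of the same length, 35.7% held a GC box and the median number of CpG was 7. Both windows therefore were richer in CpG than the median. The letters describe the windows, and nothing about the factors that bind them follows from their presence or absence.

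Of the E12.5 cells, 8 of 11 had Tgfbr1 (lowest 82.3, median 7638, highest 44767). The E13.5 cells had 11165, 472, 10054 and 20827, the E14.5 cells 26519 and 7987, and the E15.5 cell 17238, so that 6 of these 7 cells were positive and A6 was the exception. At E16.5 it was present in 5 of 11 cells (lowest 20.8, median 935, highest 115209), and cell E5 had the highest signal of any of the 10 genes. At P0 it was present in 8 of 13 cells (lowest 26.7, median 4289, highest 15999.6). Positive and negative cells were well apart, with none between 935 and 2028. The share was 45.5% at E16.5 and 72.7% at E12.5, a difference of -27.3 points (-57.1 to 12.3). It was 61.5% at P0 and 45.5% at E16.5, a difference of 16.1 points (-21.1 to 48.0). Without the 5 deviating arrays, E16.5 minus E12.5 was -39.4 points. The 6 E16.5 cells left had a median of 2114.5 genes present, against 2800 at E12.5.

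All 27 positive cells of Tgfbr1 were registered by 1 of its 3 probe sets. The other pair stayed below 1000 in every cell, with highest signals of 408 and 997. For Tgfbr2, 2 of the 3 probe sets stayed below 1000 in every cell. Its signals were 318 to 1061 on the 5 deviating arrays and 33.7 to 403 on the other 6 of E16.5. At E12.5 they were 7.29 to 321, and at P0 34.9 to 263.

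Bmpr1a, a type I receptor of BMPs, was present in 21 of 42 cells (50.0%, interval 34.2 to 65.8%). Its highest signal was 11561. Of the E12.5 cells, 4 of 11 had it (lowest 24.3, median 386, highest 7574). The E13.5 cells had 9815, 511, 2301 and 11561, the E14.5 cells 191 and 1148, and the E15.5 cell 1779, so that 5 of 7 cells were positive. It was present in 6 of 11 cells at E16.5 (lowest 88.8, median 1253, highest 6227) and in 6 of 13 at P0 (lowest 44.6, median 786, highest 3897). Among the 11 E16.5 cells, Bmpr1a was present on 3 of the 5 deviating arrays, at 1253 to 2070, and on 3 of the other 6. Many of the positive cells lay close to the level, and with a level of 2000 the share of all cells was 31.0%. The 3 differences between stages were 9.79, 18.2 and -8.39 points for P0 minus E12.5, E16.5 minus E12.5 and P0 minus E16.5, and the interval of each contained 0. The sign of P0 minus E12.5 was not stable, at -21.0 points with a level of 2000, -18.2 with 5000, -14.7 after quantile normalization and -2.80 with the mean of the probe sets. Of its 6 probe sets, 1 registered 17 cells and the others 0 to 7.

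**Figure D2:**
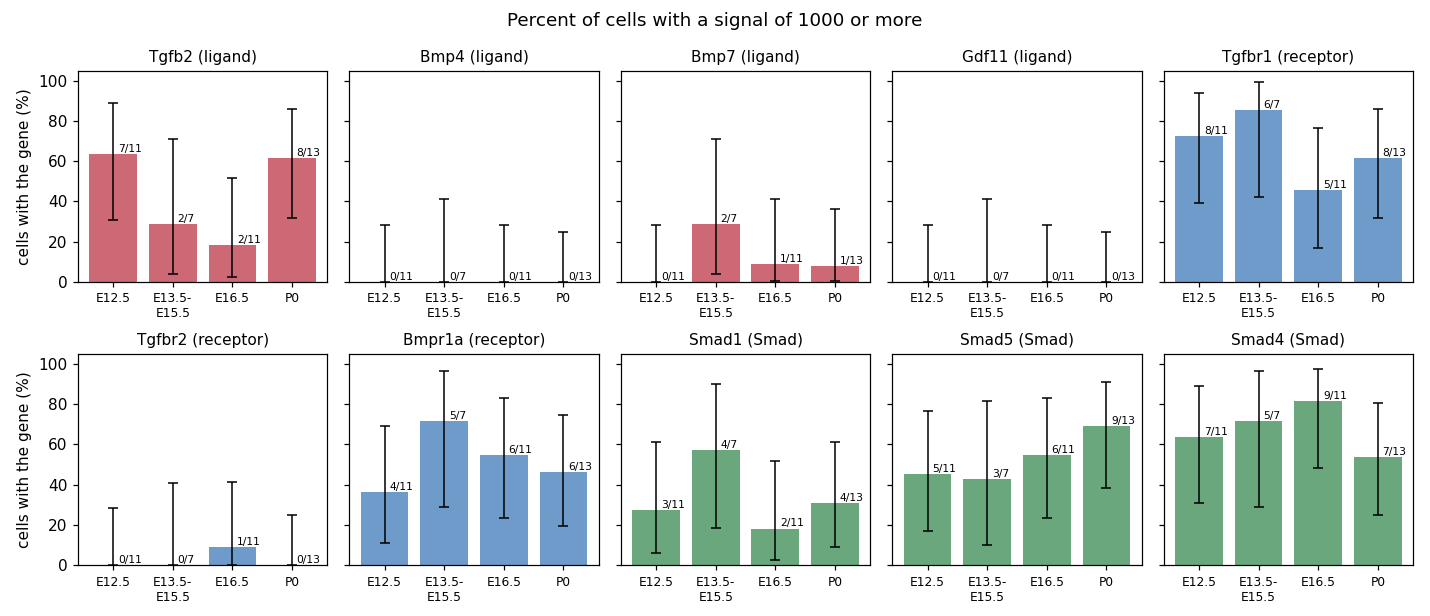
Share of the cells, in percent, in which the signal reached 1000 for each of the 10 genes at E12.5, E13.5 to E15.5, E16.5 and P0, with the number of cells above each bar and exact 95% intervals. Tgfb2 was in 7 of 11, 2 of 7, 2 of 11 and 8 of 13 cells, and no other gene of the 10 differed between E12.5, E16.5 and P0 by 30 points or more.

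Among the Smads, Smad4 and Smad5 were found in most cells and Smad1 in fewer. Smad4, the partner shared by both branches, was present in 28 of 42 cells (66.7%, interval 50.5 to 80.4%), more than any other of the 10 genes. Of the E12.5 cells, 7 of 11 had Smad4 (lowest 21.5, median 2578, highest 13188). The E13.5 cells had 153, 1286, 5426 and 15738, the E14.5 cells 163 and 4662, and the E15.5 cell 8907. At E16.5 it was present in 9 of 11 cells (lowest 216, median 2563, highest 50320.5 in cell D5), and at P0 in 7 of 13 (lowest 18.3, median 1352, highest 10829). It was found in 53.8% of P0 cells and 81.8% of E16.5 cells, a difference of -28.0 points (-55.9 to 9.42). The sign of this difference was not stable. It was -8.39 points with a level of 2000 or with the mean of the probe sets, and 3.50 with a level of 5000. Without E16.5 cell F1 and E13.5 cell A6 it was -36.2 points. Among the 11 E16.5 cells, Smad4 was present on 4 of the 5 deviating arrays and 5 of the other 6.

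Smad5, a receptor-regulated Smad of the BMP branch, was present in 23 of 42 cells (54.8%, interval 38.7 to 70.2%). Of the E12.5 cells, 5 of 11 had Smad5 (lowest 161, median 721, highest 7617). The E13.5 cells had 73.5, 942, 3024 and 1459, the E14.5 cells 302 and 203, and the E15.5 cell 11040. At E16.5 it was present in 6 of 11 cells (lowest 172, median 1665, highest 35502, in cell E5), and at P0 in 9 of 13 (lowest 52.6, median 4807, highest 9997). Among the 11 E16.5 cells, Smad5 was present on 3 of the 5 deviating arrays, at 1665 to 2495, and on 3 of the other 6. The share was 69.2% at P0 and 45.5% at E12.5, a difference of 23.8 points (-14.0 to 54.0), which was the largest of the 10 genes between these stages but did not reach 30 points. One of its 3 probe sets registered all 23 cells, and the others 1 and 3.

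Smad1, the close relative of Smad5, was present in 13 of 42 cells (31.0%, interval 17.6 to 47.1%). At E12.5 it was present in 3 of 11 cells (lowest 7.47, median 103, highest 7374). The E13.5 cells had 12.3, 819, 2487 and 36505, the E14.5 cells 187 and 4707, and the E15.5 cell 3136. At E16.5 it was present in 2 of 11 cells (lowest 13.9, median 172, highest 5098), and both were on deviating arrays. At P0 it was present in 4 of 13 cells (lowest 20.2, median 188, highest 12307). The 3 differences between stages were 3.50 points for P0 minus E12.5, -9.09 for E16.5 minus E12.5 and 12.6 for P0 minus E16.5, each with an interval that contained 0. Without the 5 deviating arrays, Smad1 was in none of the other 6 E16.5 cells, and the differences were -27.3 points for E16.5 minus E12.5 and 30.8 points for P0 minus E16.5. Those 6 cells had a median of 2114.5 genes present, against 2800 at E12.5 and 3063 at P0.

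**Figure D3:**
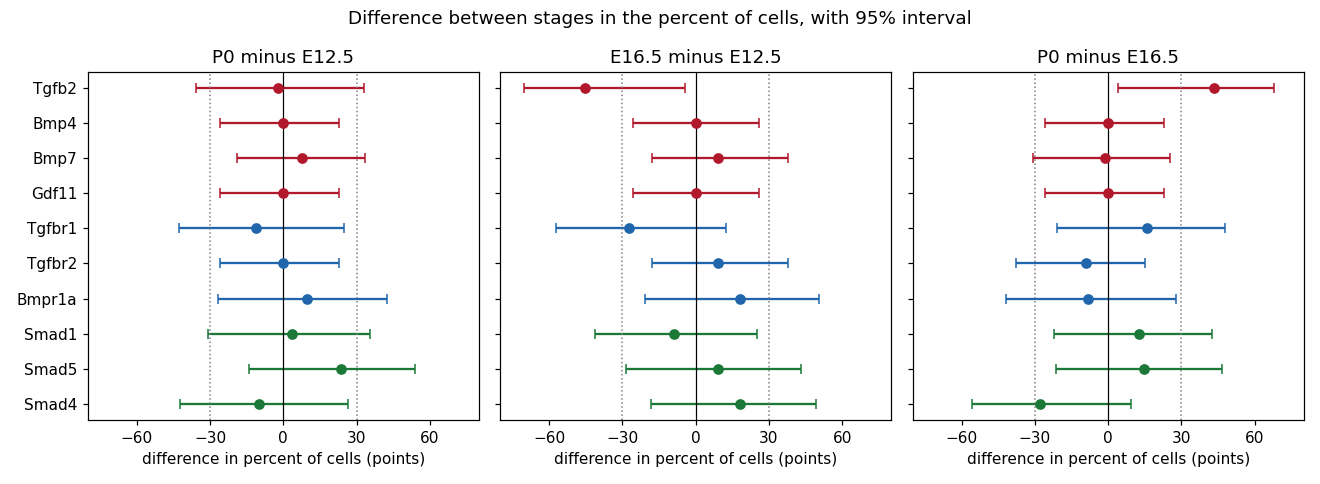
Difference in the percent of cells with each gene, in points, for P0 minus E12.5, E16.5 minus E12.5 and P0 minus E16.5; points are the differences, bars the Newcombe 95% intervals, dotted lines 30 points. Tgfb2 lies at -45.5 and 43.4 points in the contrasts with E16.5, and in the other 28 of 30 differences the interval contains 0.

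Taking 30 points as the size at which a share was called different, none of the 10 genes was called for P0 minus E12.5, where 4.73% of all 18194 genes were higher and 1.52% lower. For E16.5 minus E12.5, 1 of 10 genes, Tgfb2, was lower, and 2.03% of all genes were lower and 2.00% higher. For P0 minus E16.5, 1 of 10 genes, again Tgfb2, was higher, and 5.05% of all genes were higher and 1.74% lower. A gene must be found in several cells to reach 30 points, and 6 of the 10 genes were among the 7685 present in 5 or more cells. In that set the shares of genes called were 11.1% higher and 3.59% lower for P0 minus E12.5. They were 4.62% higher and 4.79% lower for E16.5 minus E12.5, and 11.8% higher and 4.01% lower for P0 minus E16.5. Of the 30 differences computed over the 10 genes, 2 had an interval that left out 0, and they share the E16.5 cells.

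The other genes of the pathway showed which parts of it the arrays registered. Over the 10 genes, 32.4% of the 420 values were positive, against 17.0% over all genes. These shares are not on equal terms, because a gene's value is the highest of its probe sets. The 10 genes had 30 probe sets, and all 18194 genes had 34958, which is fewer per gene. The 10 genes were also chosen with earlier results of these data known. By role, the share was 13.7% for the 4 ligands, 38.9% for the 3 receptors and 50.8% for the 3 Smads. The roles are not on equal terms either, since the ligands Bmp4 and Gdf11 had 1 probe set each and the receptor Bmpr1a had 6. Of the remaining pathway, 81 genes were measured, of which 24 were present in no cell and 14 in exactly 1. E13.5 cell A6 was that cell for 6 of the 14 and E16.5 cell F1 for 4.

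Further ligands were almost unregistered. Of 8 other TGF-beta, activin and nodal ligands, 7 appeared in some cell but none in 5 or more, and 3.57% of their values were positive. The most frequent were Tgfb3, the third TGF-beta isoform, in 4 cells (2 on deviating E16.5 arrays and 2 at P0), and the inhibin subunit genes Inha and Inhba, in 2 cells each. Of 13 other BMP and growth differentiation factor ligands measured, Bmp5, Gdf2 and Gdf5 were each present in 1 cell, E13.5 cell A6 in each case, at 1127, 1006 and 1067. Only 0.549% of the values of these 13 genes were positive.

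Of 11 other receptors, 8 appeared in some cell, and 16.0% of values were positive. Bmpr2, the type II receptor of BMPs, was the most frequent, in 18 of 42 cells. These were 3 of the 11 E12.5 cells, 2 of the 7 E13.5 to E15.5 cells, 6 of the 11 E16.5 cells and 7 of the 13 P0 cells. Of the 6 E16.5 cells, 4 were on deviating arrays. The highest signal of Bmpr2 was 20575, in E16.5 cell F5. Acvr2a, a type II receptor used by activins and BMPs, was present in 14 cells, and the type I activin receptor Acvr1b in 12. Of these 11 receptors, 0 differed by 30 points or more in any of the 3 contrasts.

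Of 5 other Smads, 12.4% of values were positive. Smad2 was present in 14 cells, with 6 of 13 at P0 and 2 of 11 at E16.5. Smad3 was present in 11 cells, in 1 of 13 at P0 and 5 of 11 at E12.5, a difference of -37.8 points (-65.0 to -2.53). The inhibitory Smad7 was present in 1 cell, E13.5 cell A6, at 1070. The pair of Smad2 and Smad3 therefore had unlike shares at P0, but the difference between these genes was not tested.

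Extracellular and intracellular regulators differed in how often they were registered. Of 20 extracellular regulators, 14 appeared in some cell, and 11.1% of values were positive. Twsg1, which binds BMPs together with chordin, was present in 23 cells, including 7 of the 7 cells of E13.5 to E15.5. The follistatin-like gene Fstl1 was present in 19 cells, and Bmp1, a protease that cleaves chordin, in 12. Bmp1 was in 5 of 11 cells at E16.5 and 1 of 11 at E12.5, a difference of 36.4 points, and 3 of the 5 cells were on deviating arrays. All 12 intracellular regulators appeared in some cell, and 47.6% of values were positive. The Smad corepressor Skil was present in 35 cells, the receptor-binding protein Strap in 33 and Fkbp1a, which holds the type I receptor inactive, in 32. Ppm1a, a phosphatase of Smads, was present in 11 of 13 cells at P0 and 5 of 11 at E12.5, a difference of 39.2 points (1.41 to 65.8).

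Genes known as targets of the pathway were positive in 23.6% of the values of 12 genes, and a few of them carried most of these. Id1, a target of BMP signaling that blocks basic helix-loop-helix factors, was present in 38 of 42 cells, among them 11 of the 11 E12.5 cells, 8 of the 11 E16.5 cells and 13 of the 13 P0 cells. Its highest signal was 236534, in E13.5 cell A6. Id3, of the same family, was present in 32 cells, in 7 of 13 at P0 and 10 of 11 at E12.5, a difference of -37.1 points (-62.9 to -0.360). Pmepa1, a target of TGF-beta that restrains the pathway, was present in 27 cells, in 11 of 13 at P0 and 5 of 11 at E12.5, a difference of 39.2 points (1.41 to 65.8). Id1, Id3 and Pmepa1 each respond to other signals too. Over the 81 pathway genes, 2 were higher (Ppm1a and Pmepa1) and 2 lower (Smad3 and Id3) by 30 points or more at P0 than at E12.5, where 4.73% and 1.52% of all genes were. A difference of this size was itself a reason to name a gene. The intervals given for Ppm1a, Pmepa1, Smad3 and Id3 therefore follow a choice among 81 differences. For E16.5 minus E12.5, Bmp1 was higher and 0 genes were lower, against 2.00% and 2.03% of all genes. For P0 minus E16.5, Trim33, a ubiquitin ligase that acts on Smad4, was higher by 34.3 points and Ppm1a by 30.1, and Id3 had a difference of -37.1, where 5.05% of all genes were higher and 1.74% lower.

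**Figure D4:**
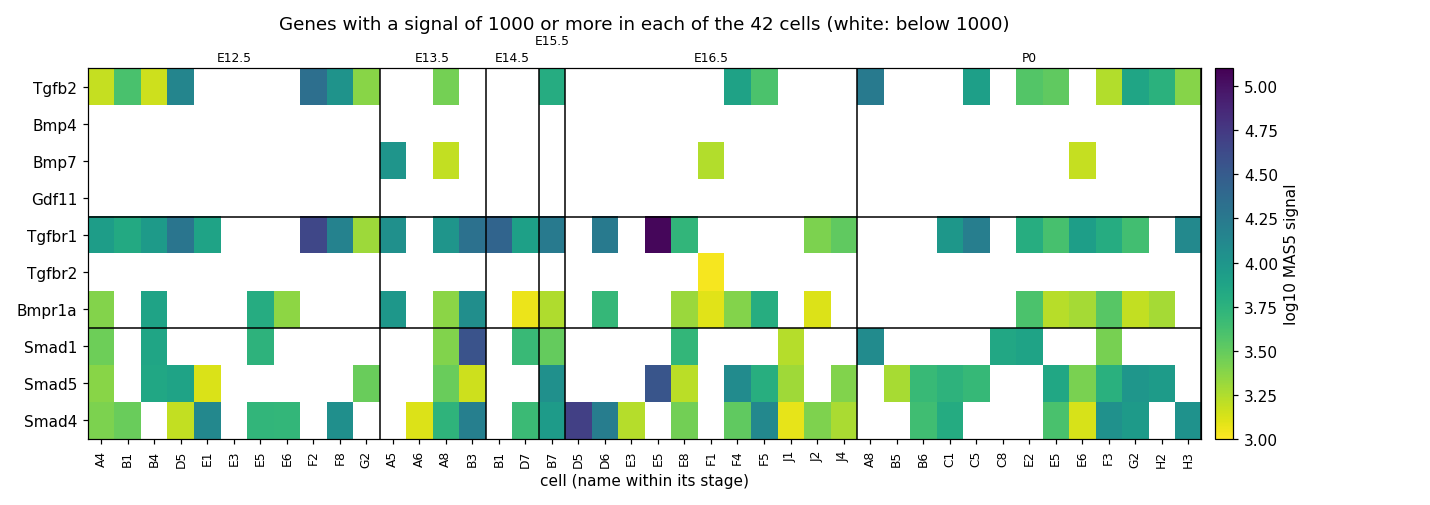
Each column is 1 of the 42 cells, grouped by stage, each row 1 of the 10 genes, and the colour the log10 MAS5 signal where it is 1000 or more (white where it is lower). The rows of Bmp4 and Gdf11 are empty, that of Tgfbr2 holds 1 cell, and that of Tgfbr1 holds 27 cells that overlap with the 19 of Tgfb2 in 15.

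Which genes lay together in a cell was counted next. Tgfb2 and Tgfbr1 were both present in 15 of 42 cells (35.7%, interval 21.6 to 52.0%). All 7 cells with Tgfb2 at E12.5 also had Tgfbr1, as did both such cells of E13.5 to E15.5 and 6 of the 8 at P0, whereas 0 of the 2 at E16.5 did. Tgfbr1 was present with Smad2 or Smad3 in 14 cells, and with Smad4 in addition in 10. These 10 cells were 3 of E12.5, 2 of E13.5 to E15.5, 0 of E16.5 and 5 of P0. Their median number of genes present was 4084, against 2884 in the other 32 cells.

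On the BMP side, Bmpr1a and at least 1 of the type II receptors Bmpr2, Acvr2a and Acvr2b were present in 18 of 42 cells (42.9%, interval 27.7 to 59.0%). Bmpr1a, a type II receptor, Smad1 or Smad5, and Smad4 were all present in 11 cells (26.2%, 13.9 to 42.0%). These were E12.5 cells A4 and E5, E13.5 cell A8, E14.5 cell D7, E15.5 cell B7, E16.5 cells F4 and F5, and P0 cells E5, E6, F3 and G2. Cell D7 among them is the one with 5 of 7 lens markers. E12.5 cell E5 had 1 of 10 progenitor markers present and the lowest summed progenitor signal of all cells, 6153. None of the 11 was on a deviating array, and their median number of genes present was 4067, against 2937 in the other cells. Smad1 and Smad5 were both present in 8 cells, and at least 1 of them in 28. In 5 cells none of Smad1, Smad4 and Smad5 was present, and in 9 neither Tgfbr1 nor Bmpr1a was.

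The number of the 10 genes in a cell went from 0, in E12.5 cell E3, to 7, in E13.5 cell A8, and 3 was both the median and the most frequent number, in 15 cells. The median was 4 in the E13.5 to E15.5 cells and 3 in each of the other stages. The share of positive values over the 10 genes was 30.9% in E12.5 cells (interval 22.4 to 40.4%) and 38.6% in E13.5 to E15.5 cells (interval 27.2 to 51.0%). It was 29.1% in E16.5 cells (interval 20.8 to 38.5%) and 33.1% in P0 cells (interval 25.1 to 41.9%). These intervals overlapped widely. The number of the 10 genes went with the number of all genes present in the cell, with Pearson's r of 0.53 and Spearman's rho of 0.52 over 42 cells. These coefficients are a description only, since both numbers come from the same array and depend on the yield of its amplification.

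**Figure D5:**
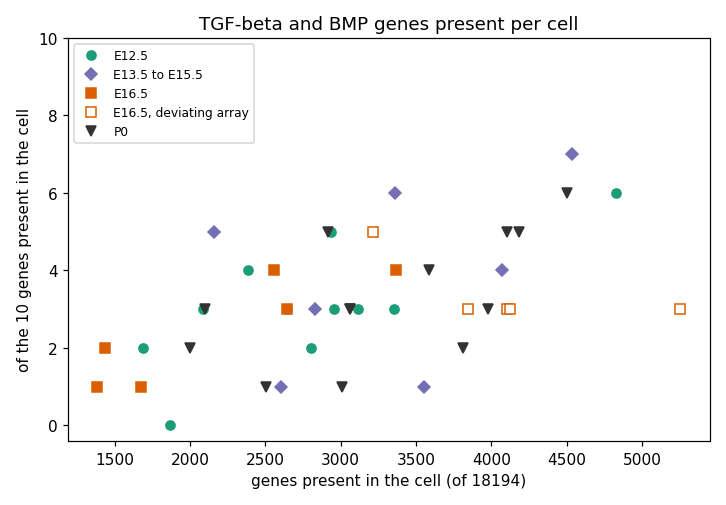
Number of the 10 genes present in a cell (vertical axis) against the number of all genes present in it (horizontal axis); each symbol is a cell, its shape and colour the stage, and open squares the 5 deviating E16.5 arrays. Cells with 5 or more of the 10 genes had between 2157 and 4828 genes present, and the cell with the most genes, at 5253, had 3 of the 10.

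For the 6 genes present in 5 or more cells, the genes whose presence was most alike were ranked by the Jaccard index, the count of cells that share them divided by the count of cells that have at least 1 of them. A gene found in every cell would reach 0.452 with Tgfb2 and 0.643 with Tgfbr1, so that broadly found genes score high by their breadth. For Tgfb2 the most alike were Ppp1r9a and Rif1 (0.615 each, 16 shared cells) and Dcp2 (0.600). For Tgfbr1 they were Ptbp1 (0.771), Olfm1 (0.742) and Tacc3 (0.733), and all 27 cells with Tgfbr1 had Ptbp1, a splicing regulator present in 35 cells. For Bmpr1a they were Ago1, Hspa4l and Psmd13, at 0.667 each. For Smad1 they were Dbf4 (0.588), Srprb (0.550) and Tmem167 (0.542), for Smad5 Qars (0.733), Igsf9 (0.714) and Psma5 (0.700), and for Smad4 Klhdc3 (0.781), Uqcrc2 (0.771) and Prdx4 (0.765). Among the 10 genes themselves the highest index was 0.528, for Tgfbr1 and Smad4, below the index that a gene in every cell would have with either.

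Ordered by the number of cells, the genes ran Smad4 (28), Tgfbr1 (27), Smad5 (23), Bmpr1a (21), Tgfb2 (19), Smad1 (13), Bmp7 (4), Tgfbr2 (1), and Bmp4 and Gdf11 (0). The intervals of neighbours in this order overlapped, from Smad4 through Tgfb2 in particular. The intervals of Smad1 (17.6 to 47.1%) and Smad4 (50.5 to 80.4%) did not overlap. Nor did those of Bmp7 (2.66 to 22.6%) and Tgfb2 (29.8 to 61.3%). The genes were counted in the same cells through different probe sets, so this order is a description and not a test between genes. The signals of different genes come from different probe sets and were not set against each other as amounts of message.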

How the data were processed

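The array signals were deposited by the authors as 1 linear intensity per probe set and cell, computed with MAS 5.0, each array being scaled to a mean of 500 after trimming 2% at each end. All 42 columns were matched to cells by label. Of 45101 probe sets, 34958 had a single gene symbol in the platform annotation, 932 had several and 9211 were unnamed, and the first set gave 18194 genes. A gene's value in a cell was the highest signal of its probe sets, and 1000 or more counted as present. Stages were compared by the percent of cells, with 30 points as the size called, and no p-value was computed since each stage is 1 sample. The share and interval code was tested on simulated data. Named genes were the 10 members; from each pathway list the 3 genes in the most cells (ties by list order) and those 30 points apart between P0 and E12.5; the 3 genes of highest Jaccard index for each member in 5 or more cells; and, outside this rule and after their values were seen, Acvr2b, Trim33 and pigment markers beside Bmp7. Members and lists were chosen with earlier results of these data known. List genes without a value are not analysed here. Amplification by PCR is not linear, so signals were not read as amounts of message. Summed marker signals are given as a description only, and a few strong markers can dominate them. Alternatives tried were other levels (500, 2000 and 5000), other ways to combine probe sets, 2 normalizations and leaving out arrays. The RefSeq table matched promoters of 8 of the 10 genes. Python 3.11.15 with numpy 2.4.6, pandas 2.3.3 and scipy 1.17.1 was used.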

Additional observations from a re-analysis of the deposited data

Results flagged for a closer look

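In E13.5, the only group of 4 to 10 cells, the highest signal lay far from the next for 5 of the 10 genes. The 10 genes were read in the same 4 cells and on a linear scale. The flags are therefore not independent, and whether 5 is more than chance would give was not tested. Bmp7 was 10018.5 in cell A5, with 1557 next, and Smad1 was 36505 in cell B3, with 2487 next. In cell A6, Bmp4 was 997 (next 12.7), Tgfbr2 585 (next 64.2) and Gdf11 489 (next 81.7), all below the level of 1000. The array of A6 had a raised median signal over all genes, 453.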

How the results depend on the processing

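The share of positive values over the 10 genes and the number of genes 30 points apart were recomputed under 10 alternatives. The share moved beyond its interval with a level of 500 (51.4% in E13.5 to E15.5 and 45.5% in E16.5 cells), of 2000 (20.0% at E16.5) and of 5000 (18.2% in E12.5, 21.4% in E13.5 to E15.5, 11.8% in E16.5 and 16.9% in P0 cells), and with the mean of the probe sets (19.1% at E16.5). For E16.5 minus E12.5, 1 gene was 30 points apart, 0 were with a level of 500 or 2000, 1 probe set per gene or the mean of probe sets, and 2 (Tgfb2 and Tgfbr1) were without the 5 deviating arrays. With a level of 5000 the 1 gene was Tgfbr1 (-36.4 points), and Tgfb2 was at -18.2. For P0 minus E16.5, 1 gene was, 0 were with a level of 500 or 5000, 1 probe set per gene, the mean of probe sets or without probe sets that can match several transcripts, and 2 (Tgfb2 and Smad4) were without E16.5 cell F1 and E13.5 cell A6. Without the 5 deviating arrays the 1 gene was Smad1 (30.8 points), and Tgfb2 was at 28.2. The E16.5 cells then left had a median of 2114.5 genes present, against 2800 at E12.5 and 3063 at P0. Leaving out each cell of E13.5 to E15.5 gave 33.3 to 43.3%. Over the alternatives Tgfb2 kept its sign, from -45.5 to -18.2 points for E16.5 minus E12.5 and 6.99 to 43.4 for P0 minus E16.5. Leaving out each cell in turn, chosen after seeing the data, gave -53.6 to -41.8 and 40.2 to 51.5 points. The cause of these shifts was not tested. No paired analysis was possible because cells carry no replicate number that pairs them across stages and no test was made. The number of cells limits each share.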
